A study of Mus musculus with 6 samples.

Results

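A set of 10 neutrophil transcripts was followed in tumor-associated macrophages (TAMs) that had been sorted from mouse tumors. The set comprised S100a8, S100a9, Retnlg, Cxcr2, Mmp8, Ngp, Camp, Ltf, Mpo and Elane. It was chosen by gene symbol, and all 10 were found by Ensembl ID among the 55421 genes of the count table. The transcripts bear on how far RNA of neutrophils is present in the sorted macrophages, and on whether it differs between genotypes.

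TAMs came from control Pdcd1f/f mice and from Pdcd1f/fLysMcre mice, with 3 RNA-seq libraries for each genotype. Both genotypes carry the conditional Pdcd1 allele, the gene of the inhibitory receptor PD-1. Only the Pdcd1f/fLysMcre mice carry Cre recombinase under the lysozyme (LysM) promoter, which is active in macrophages and also in neutrophils. All mice were implanted with a tumor labelled M17, described in the study as the fibrosarcoma line MC17-51, and TAMs were collected 15 days later. Mice used for tumors were 8 to 12 weeks old. The labels describe the cells as CD11b+F4/80+ TAMs. Sorting on live cells positive for CD45, CD11b and F4/80 and negative for Ly6G is described in the study for TAMs of Shp2 mice. The Ly6G step is not named in the labels of the libraries analysed here. Whether a library holds 1 mouse or pooled mice is not given in the sources used here.

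Neutrophils load their granules in a fixed order while they mature in the bone marrow. Mpo (myeloperoxidase) and Elane (neutrophil elastase) are made first and fill the primary granules, Ltf (lactoferrin), Camp (cathelicidin) and Ngp (neutrophilic granule protein) follow in the secondary granules, and Mmp8 (neutrophil collagenase) is likewise stored in granules formed after the primary ones. S100a8 and S100a9 form calprotectin, an abundant calcium-binding alarmin of the neutrophil cytosol that monocytes also make. Cxcr2 is the chemokine receptor that draws neutrophils into tissue, and Retnlg is a secreted protein of the resistin family typical of mature neutrophils.

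The 3 members with the highest level per transcript length lay in a pair of loci. S100a8 (chr3:90668978-90670035, GRCm38, plus strand) and S100a9 (chr3:90692632-90695721, minus strand) are neighbours separated by 22.6 kb. Mmp8 (chr9:7558456-7568485, plus strand) lies on chromosome 9, as do Camp, Ngp and Ltf, but 102279 kb away from Camp. Upstream sequence was taken from RefSeq (GRCm38.p6) for all 10 members. In the 250 bases before the start, GCAAT or its reverse complement ATTGC, the half-site of C/EBP factors, was present in 9 of 10 members and in 23.1% of 32851 promoters of that length. The PU.1 core GAGGAA (reverse complement TTCCTC) was present in 6 of 10 members and in 23.3% of the promoters. TATAAA (reverse complement TTTATA) was present in 1 of 10 members, S100a8, and in 12.4% of the promoters. Matches of GCAAT and GAGGAA do not overlap in the sequences shown, and a match is a description of the sequence only. Sequences are shown for the 3 abundant members, for Retnlg, whose libraries separated by genotype, and for Ltf, which holds the same letters although its level was near 0. Capitals mark GCAAT and GAGGAA on either strand. Each sequence is written along the strand of its gene, 5′ to 3′, and ends just before the RefSeq start, or before the first GENCODE exon where that begins inside the window. In windows shortened in this way GCAAT was left in 6 of 10 members, not in Camp, Elane or Mpo, and GAGGAA in 6 of 10. The TATAAA match of S100a8 lay in the bases left out, so that 0 members held it and the S100a8 sequence shown lacks it. The windows are chr3:90668821-90668977 (plus), chr3:90695722-90695971 (minus), chr9:7558179-7558428 (plus), chr16:48872358-48872607 (plus) and chr9:111019042-111019270 (plus).
S100a8: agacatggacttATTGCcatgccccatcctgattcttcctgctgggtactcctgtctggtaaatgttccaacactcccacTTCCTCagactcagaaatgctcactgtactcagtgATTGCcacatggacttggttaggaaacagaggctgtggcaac
S100a9: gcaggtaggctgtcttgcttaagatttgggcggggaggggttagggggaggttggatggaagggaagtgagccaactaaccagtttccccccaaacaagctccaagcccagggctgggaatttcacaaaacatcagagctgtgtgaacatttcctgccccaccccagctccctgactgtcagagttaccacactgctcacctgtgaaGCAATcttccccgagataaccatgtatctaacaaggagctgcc
Mmp8: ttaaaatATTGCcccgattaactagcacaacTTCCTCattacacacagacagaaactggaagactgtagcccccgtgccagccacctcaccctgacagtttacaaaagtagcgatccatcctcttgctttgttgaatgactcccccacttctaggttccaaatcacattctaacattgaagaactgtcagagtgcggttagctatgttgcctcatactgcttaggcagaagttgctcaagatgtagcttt
Retnlg: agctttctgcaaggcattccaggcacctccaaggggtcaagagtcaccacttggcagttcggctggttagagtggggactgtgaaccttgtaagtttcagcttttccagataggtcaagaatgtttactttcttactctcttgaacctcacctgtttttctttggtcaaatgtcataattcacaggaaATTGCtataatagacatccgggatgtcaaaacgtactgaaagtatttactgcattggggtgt
Ltf: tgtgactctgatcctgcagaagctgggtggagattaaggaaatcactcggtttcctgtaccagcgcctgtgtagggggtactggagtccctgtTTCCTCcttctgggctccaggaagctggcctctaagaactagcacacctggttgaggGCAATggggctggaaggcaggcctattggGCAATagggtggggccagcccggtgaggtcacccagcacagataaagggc

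Libraries held 41833823 to 51417209 counts, so that 3 counts, the limit that a count of 0 allows, corresponded to 0.0583 to 0.0717 CPM (counts scaled to a library total of 1000000). Counting intervals and limits cover counting error only. The libraries of each genotype differed from one another. Deviations were taken from the mean of each genotype, so they cannot show a GC difference between genotypes. The rank correlation across 9534 genes between GC content and a library's deviation from its genotype mean was −0.790 in Pdcd1f/f replicate 1 and −0.739 in Pdcd1f/fLysMcre replicate 2, against 0.211 to 0.757 in the other 4 libraries. Lyz2, the gene that encodes lysozyme, fell from 216864 ± 8638 to 427 ± 33.4 normalized counts (SD, n = 3), with a log2 fold change of −8.99 (SE 0.0968, adjusted p = 2.43e-12, edgeR). The Cre cassette of this strain lies in the Lyz2 locus. Pdcd1 itself had 10, 12 and 15 counts in Pdcd1f/f libraries and 7, 16 and 11 in Pdcd1f/fLysMcre libraries (log2 fold change −0.25, SE 0.45, edgeR adjusted p = 0.771), so the deletion could not be seen in the counts of this gene. The Cre allele is present in one genotype only, and its effects cannot be told apart from those of losing Pdcd1.

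The 10 members fell into a group of 5 that was readily measured and a group of 5 that was close to 0. On the TPM scale (counts divided by exon length and scaled to a sum of 1000000 per library), the mean over all 6 libraries was 139 for S100a8, 81.3 for S100a9, 57.8 for Mmp8, 3.80 for Retnlg and 1.86 for Cxcr2. Each of the 5 granule genes Ngp, Ltf, Mpo, Camp and Elane averaged 0.231 TPM or less. The ranges of S100a8 (108 to 160 TPM) and S100a9 (71.8 to 88.6 TPM) did not overlap, and neither did those of S100a9 and Mmp8 (45.5 to 68.6 TPM). Retnlg (2.02 to 5.55 TPM) and Cxcr2 (1.43 to 2.05 TPM) overlapped slightly. The order among the 5 granule genes rested on a few counts per library and is not read.

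**Figure D1:**
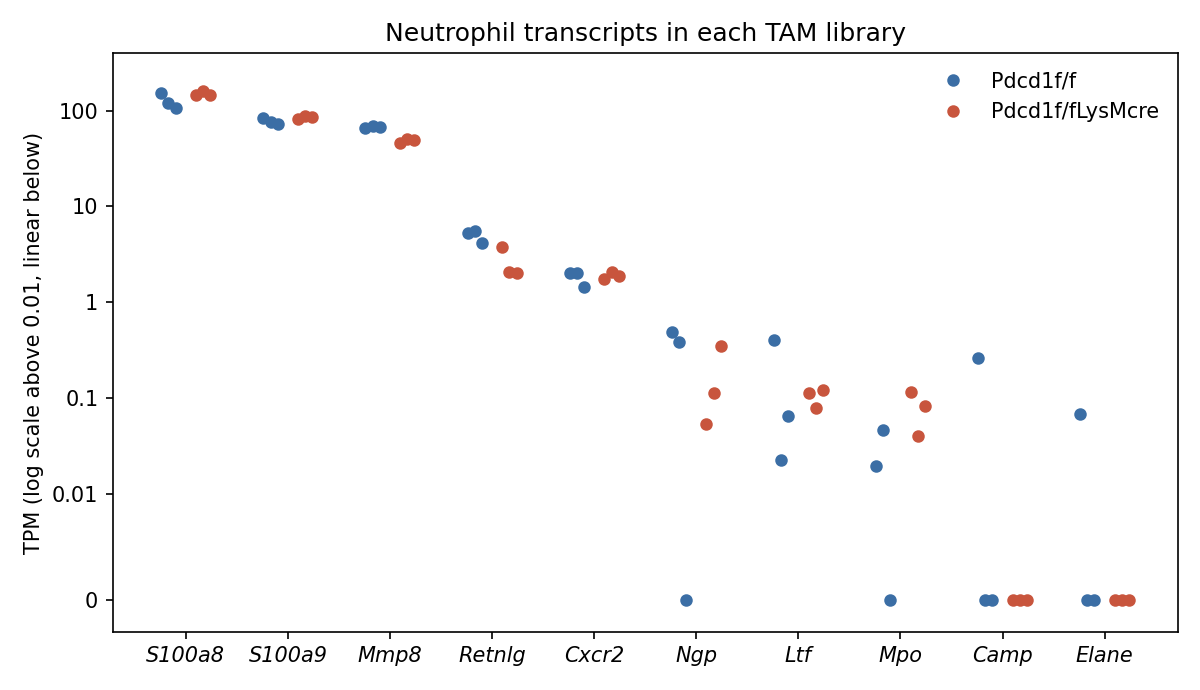
Level of each member in TPM (vertical axis, log scale above 0.01 and linear below) in the 3 Pdcd1f/f libraries (blue) and the 3 Pdcd1f/fLysMcre libraries (red); each point is 1 library. S100a8, S100a9 and Mmp8 lie between 45.5 and 160 TPM, whereas the 5 granule genes at the right lie below 0.5 TPM in every library.

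Genes made early in granule formation were scarcely present in the sorted TAMs. Mpo had 1, 2 and 0 counts in Pdcd1f/f replicates 1 to 3 and 6, 2 and 4 counts in Pdcd1f/fLysMcre replicates 1 to 3. Elane had 1 count in Pdcd1f/f replicate 1 and 0 in the other 5 libraries. Both primary granule genes were thus at 0.117 CPM or less in all 6 libraries. Mpo shares 512 exonic bases with the antisense gene Gm11505, and since the strand setting of the counting is not stated, its few reads could belong to either.

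Among the secondary granule genes, Camp had 3 counts in Pdcd1f/f replicate 1 and none in the other 5 libraries. Counts of Ngp were 9, 6 and 0 in Pdcd1f/f TAMs and 1, 2 and 6 in Pdcd1f/fLysMcre TAMs. Ltf had 21, 1 and 3 counts against 6, 4 and 6. The genotypes overlapped for all 5 granule genes, and none reached the count needed for testing.

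Summed over Ngp, Camp, Ltf, Mpo and Elane, 35, 9 and 3 counts were found in control TAMs and 13, 8 and 16 in Pdcd1f/fLysMcre TAMs. Pdcd1f/f replicate 1 stood highest, at 0.692 CPM (95% exact Poisson interval 0.482 to 0.963). The interval of the next library, Pdcd1f/fLysMcre replicate 3, was 0.191 to 0.544 CPM around 0.335 CPM. Pdcd1f/f replicate 1 also held 21 of the 41 counts of Ltf and the 4 counts of Camp and Elane.

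Ly6g, the gene of the neutrophil surface antigen Ly6G, had 1, 0 and 1 counts in Pdcd1f/f libraries and 0, 2 and 3 counts in Pdcd1f/fLysMcre libraries. Cxcr1, a second receptor for neutrophil chemokines, had 1, 2 and 4 against 2, 0 and 0 counts. Ctsg, the primary granule protease cathepsin G, had no counts in Pdcd1f/f libraries and 0, 1 and 3 in Pdcd1f/fLysMcre libraries. These genes stayed at or near the limit that a count of 0 allows. In bulk RNA, fewer cells of a type and less RNA per cell cannot be told apart.

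The alarmin genes S100a8 and S100a9 were the most abundant members. S100a8 had 1485, 1187 and 1089 normalized counts in Pdcd1f/f libraries and 1443, 1554 and 1420 in Pdcd1f/fLysMcre libraries. Pdcd1f/f replicate 1 lay within the range of the other genotype, and the other 2 control libraries lay below it. The means were 1253 ± 206 and 1472 ± 71.8 (SD, n = 3), and the log2 fold change was 0.23 (SE 0.11, 95% interval −0.0084 to 0.47), which did not pass the test (edgeR, adjusted p = 0.220). Without Pdcd1f/f replicate 1 the log2 fold change of S100a8 was 0.36 and passed (edgeR, adjusted p = 0.00906), and without both libraries set apart by GC content it was 0.33 (edgeR, adjusted p = 0.00302). It also passed, with a smaller log2 fold change, once counts were corrected for GC content and length (0.19, edgeR adjusted p = 0.0432). Over all genes, 3181, 3757 and 2609 passed in these fits, in the order given. With edgeR on all 6 libraries and no correction, 786 passed.

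S100a9, the partner subunit, had 610, 568 and 547 normalized counts in Pdcd1f/f libraries and 606, 648 and 624 in Pdcd1f/fLysMcre libraries. Again Pdcd1f/f replicate 1 fell among the libraries of the other genotype. The means were 575 ± 32.4 and 626 ± 20.8 (SD, n = 3), with a log2 fold change of 0.12 (SE 0.09, 95% interval −0.07 to 0.32, edgeR adjusted p = 0.412). S100a9 stayed under the threshold in each of the 16 alternatives, with adjusted p between 0.249 and 0.741.

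The ratio of S100a9 to S100a8 counts was 0.411, 0.478 and 0.502 in the Pdcd1f/f libraries. In the Pdcd1f/fLysMcre libraries it was 0.420, 0.417 and 0.440, all within the range of the controls. Across the 6 libraries, deviations from the genotype mean of log2(CPM + 1) had r = 0.93 between both genes. Such a correlation over 6 libraries also carries what the libraries share, including the GC difference. The 5 genes whose deviations were most like the mean of S100a8 and S100a9 were Sf3b6, Zfp263, Usp7, Setd6 and the processed pseudogene Gm12183, with r from 0.998 to 0.999. None of these 5 is in the neutrophil lists. Among the members, r to that mean was 0.729 for Cxcr2, 0.066 for Retnlg and −0.286 for Mmp8. Within 250 kb of S100a8, 11 genes were tested, and 1 of them passed, beside 5.43% of all genes tested with edgeR. That gene was S100a1, named after its value was seen, which was lower (log2 fold change −0.45, edgeR adjusted p = 0.00859).

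Mmp8 was the member that changed between genotypes. It had 2218, 2373 and 2360 normalized counts in Pdcd1f/f libraries and 1562, 1731 and 1683 in Pdcd1f/fLysMcre libraries. The genotypes did not overlap, and the lowest control library lay well above the highest Pdcd1f/fLysMcre library. From 2317 ± 86.0 to 1659 ± 87.4 (SD, n = 3), Mmp8 fell by 0.48 on the log2 scale (SE 0.07, 95% interval −0.64 to −0.32, edgeR adjusted p = 0.00393). The call held in each of the 16 alternatives, with log2 fold changes from −0.56 to −0.44 and adjusted p from 4.45e-07 to 0.0417. Of the 6 genes tested within 250 kb of Mmp8, none passed the edgeR threshold after adjustment. An unadjusted p under 0.05 was reached by 1 of the 6, beside 24.2% of all genes tested with edgeR. This was Mmp12, the macrophage elastase, with a log2 fold change of 0.22 (edgeR, adjusted p = 0.156).

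**Figure D2:**
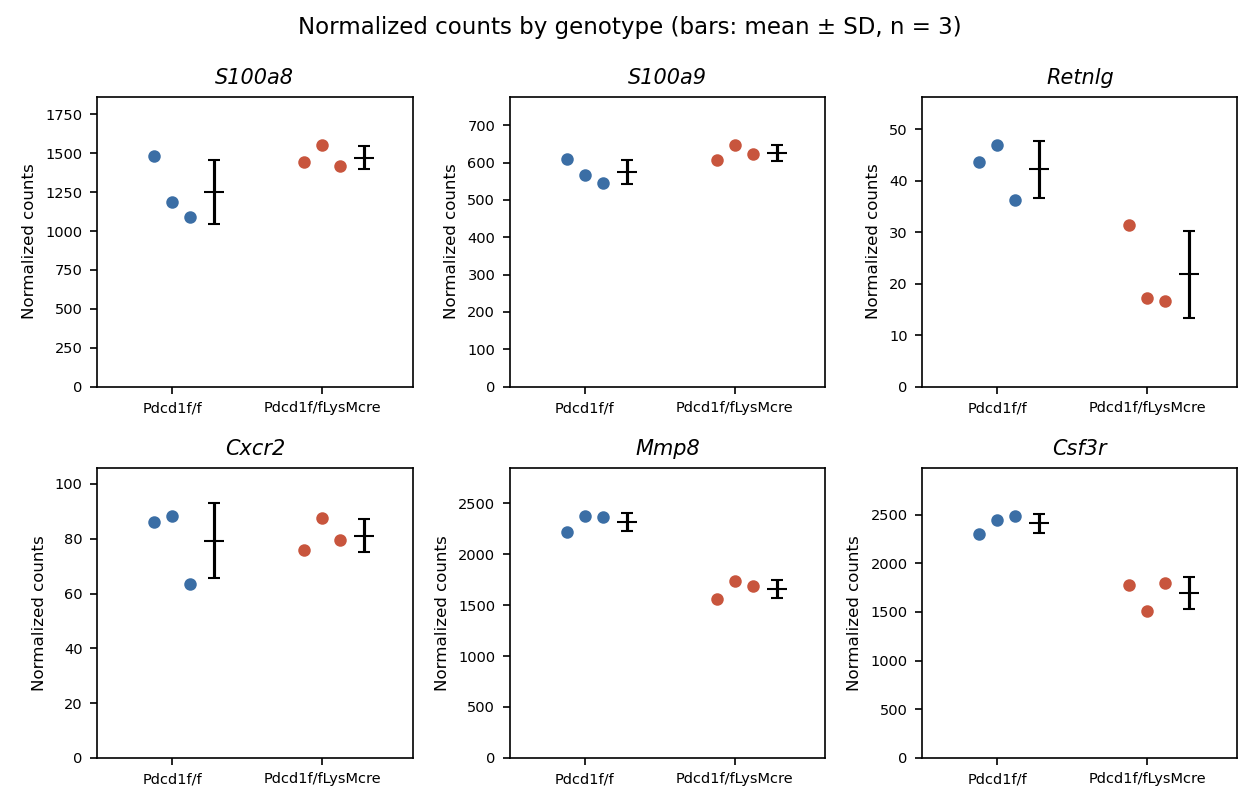
Normalized counts (vertical axes, from 0) of the 5 tested members and of Csf3r in the 3 Pdcd1f/f (blue) and 3 Pdcd1f/fLysMcre (red) libraries, with mean ± SD as black bars. Mmp8 and Csf3r separate the genotypes without overlap, while S100a8, S100a9 and Cxcr2 overlap.

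Retnlg had 43.6, 46.9 and 36.1 normalized counts in Pdcd1f/f libraries and 31.5, 17.1 and 16.7 in Pdcd1f/fLysMcre libraries. The libraries did not overlap, though Pdcd1f/fLysMcre replicate 1 came close to the lowest control. From means of 42.2 ± 5.52 and 21.8 ± 8.39 (SD, n = 3), the log2 fold change was −0.95 (SE 0.32, 95% interval −1.66 to −0.23). This did not pass after adjustment over all genes (edgeR, adjusted p = 0.110), nor in any of the 16 alternatives, where adjusted p was 0.0525 to 0.333. The raw counts behind it were 17 to 47 per library.

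Retnlg and S100a8 did not keep 1 ratio between the libraries. Per 1000 counts of S100a8, Retnlg had 29.4, 39.5 and 33.2 counts in Pdcd1f/f libraries and 21.8 in Pdcd1f/fLysMcre replicate 1 and 11.8 or less in replicates 2 and 3. For Mmp8 the ratio was 1494 to 2168 in control libraries and 1082 to 1186 in Pdcd1f/fLysMcre libraries, per 1000 counts of S100a8. These ratios are given as values without a test.

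Cxcr2, the receptor, had 86.2, 88.3 and 63.5 normalized counts in Pdcd1f/f libraries and 75.9, 87.6 and 79.6 in Pdcd1f/fLysMcre libraries. Its libraries overlapped fully. The means were 79.3 ± 13.7 and 81.0 ± 6.0 (SD, n = 3), and the log2 fold change of 0.03 had a 95% interval from −0.39 to 0.45 (SE 0.19, edgeR adjusted p = 0.938), so changes within that interval could not be seen at this depth. Its sign turned in 4 of 16 alternatives, among them the fits without Pdcd1f/f replicate 3 and without Pdcd1f/fLysMcre replicate 2.

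Altogether 5 of the 10 members were tested, and 1 of them, Mmp8, passed the edgeR threshold, in the lower direction. Over all 14469 genes tested, 786 passed (5.43%), with 350 higher (2.42%) and 436 lower (3.01%). The libraries of the genotypes did not overlap for 2 of the 5 tested members, Mmp8 and Retnlg, against 27.2% of all genes tested. With edgeR on all 6 libraries, with the low-count filter of the tests above and without block or offsets, no member was higher, nor at an unadjusted p under 0.05, and by DESeq2 none was higher. The median log2 fold change of the 5 tested members was 0.03, beside −0.0026 over all genes tested. In total the 10 members made up 95.4, 91.4 and 86.8 CPM in Pdcd1f/f libraries and 78.4, 84.6 and 81.7 CPM in Pdcd1f/fLysMcre libraries, a ratio of group means of 0.894. Without S100a8 and S100a9 that ratio was 0.715. The direction turned on the TPM scale, which gives the short S100a8 and S100a9 transcripts more weight, with sums of 311, 273 and 252 TPM in Pdcd1f/f libraries against 281, 304 and 286 TPM and a ratio of 1.04.

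**Figure D3:**
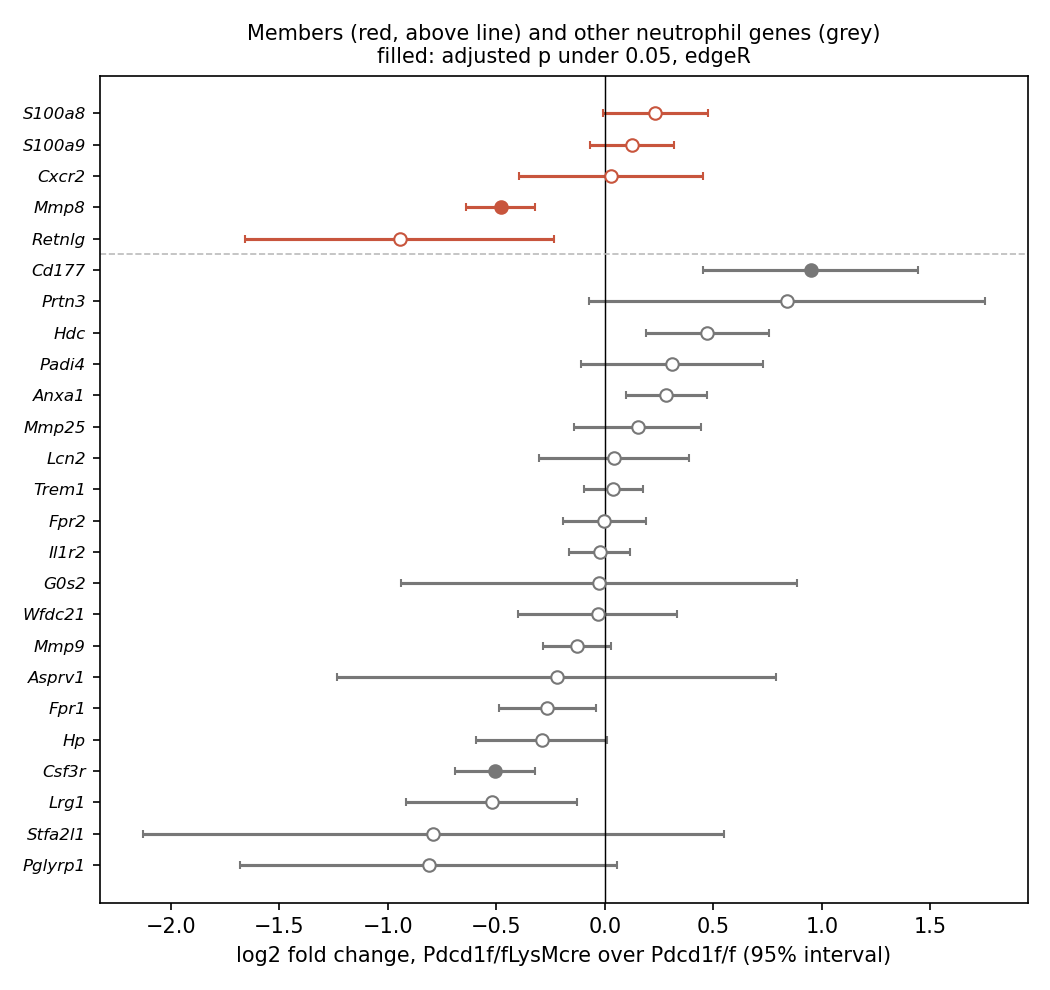
Log2 fold change (horizontal axis, Pdcd1f/fLysMcre over Pdcd1f/f) with its 95% interval from edgeR for the 5 tested members (red) and the 20 tested genes of a further neutrophil list (grey); filled points passed an adjusted p of 0.05. Mmp8 and Csf3r lie below 0 and Cd177 above it, and the other intervals are drawn with open points.

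A further list of 30 neutrophil genes gave the wider picture. Of its 20 tested genes, 1 was higher and 1 lower by edgeR, and the median log2 fold change of the 20 was −0.03. Another 4 of the 30 genes had at most 3 counts in every library, and one of these, Itgb2l, had none. By DESeq2, with 29 genes tested, 3 were higher and 2 lower, with Anxa1 and Hdc added as higher and Lrg1 as lower. With GC and length offsets 3 were higher and 3 lower by edgeR. Over all genes, 1517 passed by DESeq2 and 2609 with these offsets, against 786 with edgeR on all 6 libraries without them. Without Pdcd1f/f replicate 2 none passed the edgeR threshold, while 3 were higher and 2 lower at an unadjusted p under 0.05. Csf3r, the receptor for the granulocyte growth factor G-CSF, had 2482, 2192 and 2268 counts in Pdcd1f/f libraries and 1919, 1582 and 1830 in Pdcd1f/fLysMcre libraries. Normalized counts fell from 2412 ± 96.8 to 1694 ± 163 (SD, n = 3), and the log2 fold change was −0.51 (SE 0.08, edgeR adjusted p = 0.00686). Without Pdcd1f/f replicate 2 the adjusted p of Csf3r was 0.0524 (edgeR). Cd177, a neutrophil surface protein, had 41, 44 and 54 counts in Pdcd1f/f libraries and 96, 86 and 112 in Pdcd1f/fLysMcre libraries. The genotypes did not overlap, and it rose by a log2 fold change of 0.95 (SE 0.22, edgeR adjusted p = 0.0356). When each library was left out in turn, that call held in 1 of 6 fits, with adjusted p up to 0.148 and log2 fold changes from 0.78 to 1.11.

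Other genes of that list were present at very different levels. Mmp9, the gelatinase that macrophages make as well, averaged 3153 TPM and had a log2 fold change of −0.13 (SE 0.07, edgeR adjusted p = 0.296). It passed in 1 of 16 alternatives, without both libraries set apart by GC content (−0.12, edgeR adjusted p = 0.0391). Lcn2, the secondary granule protein lipocalin 2, averaged 6.62 TPM, with 244, 220 and 233 counts against 263, 210 and 309, and a log2 fold change of 0.04 (SE 0.16, edgeR adjusted p = 0.896), which changed sign without Pdcd1f/f replicate 1 and without Pdcd1f/fLysMcre replicate 3. Prtn3, the primary granule protease proteinase 3, had 9, 5 and 12 counts in Pdcd1f/f libraries and 18, 16 and 17 in Pdcd1f/fLysMcre libraries. Its libraries did not overlap, but the log2 fold change of 0.84 (SE 0.41) did not pass the test (edgeR, adjusted p = 0.239).

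Transcription factors of granulocyte development were given from a list of 8 genes. Of its 6 tested genes, Cebpa was lower and none was higher by the edgeR threshold. At an unadjusted p under 0.05, which 24.2% of all genes tested reached with edgeR, 2 were higher and 3 lower. By DESeq2 none was higher and 2 were lower after adjustment, and without both libraries set apart by GC content 1 was higher and 4 were lower by edgeR. Over all genes, 1517 passed by DESeq2 and 3757 without both libraries, against 786 with edgeR on all 6 libraries. Cebpa, a factor of the early myeloid lineage, had 4076 ± 419 and 3192 ± 162 normalized counts (SD, n = 3) and changed by −0.35 on the log2 scale (SE 0.08, edgeR adjusted p = 0.0380). That call was lost with the GC and length correction (log2 fold change −0.12, edgeR adjusted p = 0.210) and in 5 of 6 fits with a library left out, where adjusted p reached 0.190. Cebpe, the factor that drives secondary granule genes, had 16, 16 and 19 counts in Pdcd1f/f libraries and 50, 48 and 28 in Pdcd1f/fLysMcre libraries. Each Pdcd1f/fLysMcre library lay above each control, and the log2 fold change was 1.16 (SE 0.32, edgeR adjusted p = 0.0651). With the GC and length correction Cebpe passed (1.39, edgeR adjusted p = 0.0109), as it did with offsets and block and with both other low-count filters. It did not pass in the other 12 alternatives, among them DESeq2, where adjusted p was 0.0513 to 0.216.

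The ligands of CXCR2, which attract neutrophils, ranged widely in the sorted cells. Cxcl2, Ppbp, Cxcl1 and Cxcl3 averaged 2818, 401, 386 and 150 TPM, Cxcl5 averaged 4.63 TPM, and Cxcl15 had 0 counts in every library. Of 5 tested ligand genes, 2 were higher by edgeR and by DESeq2. Without both libraries set apart by GC content 3 were higher and 1 lower by edgeR, with Cxcl2 and Cxcl5 added to the calls. In that fit 3757 genes passed in all, against 786 with edgeR on all 6 libraries and 1517 with DESeq2. Cxcl3 had 5411, 4708 and 4985 counts in Pdcd1f/f libraries and 10210, 10399 and 9665 in Pdcd1f/fLysMcre libraries. Normalized counts rose from 5246 ± 221 to 9618 ± 249 (SD, n = 3), by 0.88 on the log2 scale (SE 0.06, edgeR adjusted p = 2.84e-05). Ppbp had 4872, 3945 and 3964 counts against 8085, 9110 and 7453, and its log2 fold change was 0.83 (SE 0.07, edgeR adjusted p = 0.000202). For both genes the lowest Pdcd1f/fLysMcre library stood far above the highest control, and both calls held in each of the 16 alternatives. Ppbp is also known from platelets, whose markers Gp1bb and Gp9 had 0 counts and 1 count in all 6 libraries together. Itga2b, also made by platelets, averaged 0.246 TPM (log2 fold change −0.42, edgeR adjusted p = 0.527), while Pf4, a chemokine of platelets and of some macrophages, averaged 3396 TPM. The log2 fold change of Pf4 was −0.14 (SE 0.06, edgeR adjusted p = 0.166), opposite in sign to that of Ppbp, and Pf4 was called lower with GC and length offsets and without both libraries set apart by GC content.

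**Figure D4:**
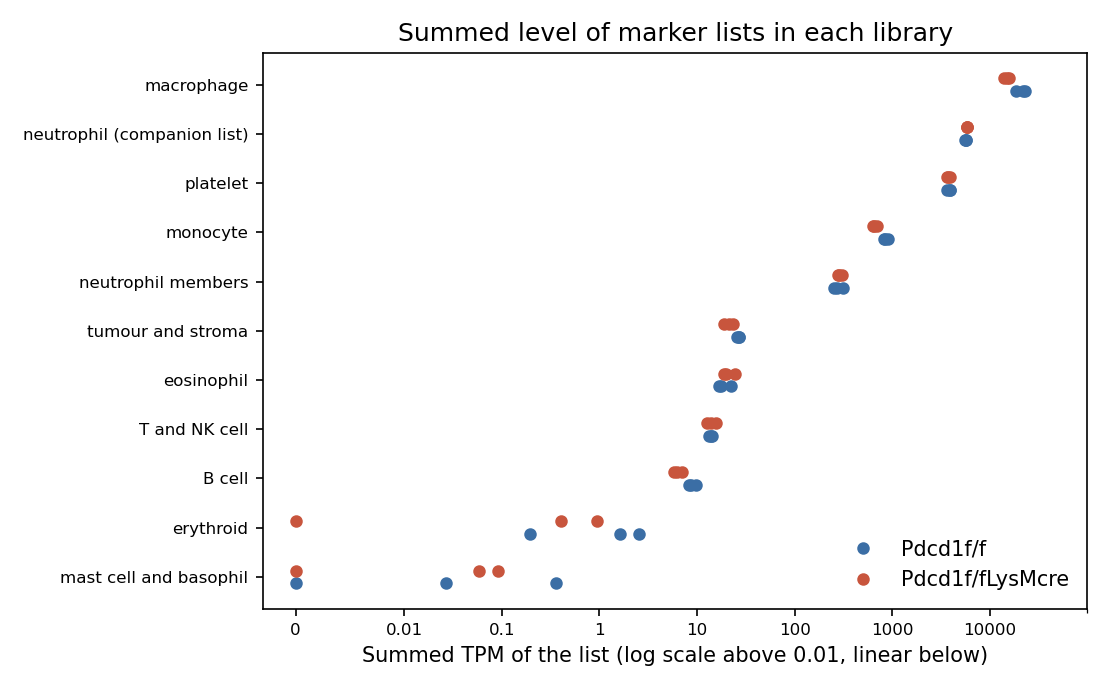
Summed level of each marker list in TPM (horizontal axis, log scale above 0.01 and linear below); each point is 1 library, with Pdcd1f/f in blue and Pdcd1f/fLysMcre in red. The macrophage list lies at 13801 to 22728 TPM and the 10 neutrophil members at 252 to 311 TPM. The further list of 30 neutrophil genes lies at 5588 to 5734 TPM in Pdcd1f/f and 5783 to 5865 TPM in Pdcd1f/fLysMcre libraries.

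The sorted cells carried the transcripts of CD11b and F4/80, which the labels name, and of CD45. Ptprc (CD45), Itgam (CD11b) and Adgre1 (F4/80) averaged 107, 249 and 623 TPM. Their log2 fold changes were 0.11 (edgeR adjusted p = 0.359), −0.16 (edgeR adjusted p = 0.237) and −0.38 (edgeR adjusted p = 0.00496). Without both libraries set apart by GC content Itgam passed as lower (−0.18, edgeR adjusted p = 0.00885). Adgre1 lost its call without Pdcd1f/f replicate 2 (0.0508) and without Pdcd1f/fLysMcre replicate 1 (0.0513). Of 10 macrophage genes tested, 9 were lower in Pdcd1f/fLysMcre TAMs and none higher by edgeR or DESeq2, nor with edgeR at an unadjusted p under 0.05, among them Csf1r, the receptor for macrophage colony-stimulating factor (log2 fold change −0.32, SE 0.07, edgeR adjusted p = 0.0308). The count of 9 fell to 2 without Pdcd1f/f replicate 2 or without Pdcd1f/fLysMcre replicate 1 and to 5 without Pdcd1f/fLysMcre replicate 2, while 9 had an unadjusted p under 0.05 in each of these edgeR fits. Csf1r passed in 2 of 6 fits with a library left out, those without Pdcd1f/f replicate 1 and without Pdcd1f/fLysMcre replicate 3, and adjusted p reached 0.172 in the others. The summed macrophage list was 18565 to 22728 TPM in Pdcd1f/f libraries and 13801 to 15779 TPM in Pdcd1f/fLysMcre libraries, with none of its genes at 0. Mmp8 and Csf3r moved in the same direction as this list, and its part in their lower level was not tested. The summed neutrophil members were 252 to 311 TPM and 281 to 304 TPM, and the ranges overlapped. The further list of 30 neutrophil genes summed to 5588 to 5734 TPM and 5783 to 5865 TPM, without overlap. In CPM its sums were 5450 to 5564 and 5411 to 5574, which overlapped. Within this list Mmp9 averaged 3153 TPM and Anxa1 2066 TPM.

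Lists of other cells differed in level and held single genes that were well detected. The eosinophil list summed to 16.8 to 22.5 TPM in Pdcd1f/f libraries and 18.9 to 24.7 TPM in Pdcd1f/fLysMcre libraries; nearly all of it was Ccr3, at 19.8 TPM on average, while Epx was at 0. The B cell list summed to 8.30 to 9.81 and 5.89 to 7.09 TPM, of which Cd79b averaged 7.55 TPM, while Pax5 was at 0. The T and NK cell list summed to 13.2 to 14.2 and 12.7 to 15.7 TPM, of which Cd4 averaged 10.4 TPM. None of the tested genes of these 3 lists, Ccr3, Cd79b, Cd4 and Trac, passed the edgeR threshold. Cd79b came nearest (log2 fold change −0.52, edgeR adjusted p = 0.0670), and was called lower in 5 alternatives: when all genes with at least 1 count were tested (0.0308), with GC and length offsets, with offsets and block, without Pdcd1f/f replicate 1, and without both libraries set apart by GC content. The tumor and stroma list summed to 25.9 to 27.1 and 19.1 to 23.7 TPM, and of its 7 tested genes Col1a2 (132 and 65.6 normalized counts, edgeR adjusted p = 0.0121) and Pecam1 (log2 fold change −0.62, edgeR adjusted p = 0.00340) were lower and none was higher, nor at an unadjusted p under 0.05. The call of Col1a2 was lost without Pdcd1f/f replicate 3 and without Pdcd1f/fLysMcre replicate 1. The mast cell and basophil list summed to at most 0.359 TPM and the erythroid list to at most 2.57 TPM in any library, and none of their genes reached the count needed for testing.

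**Figure D5:**
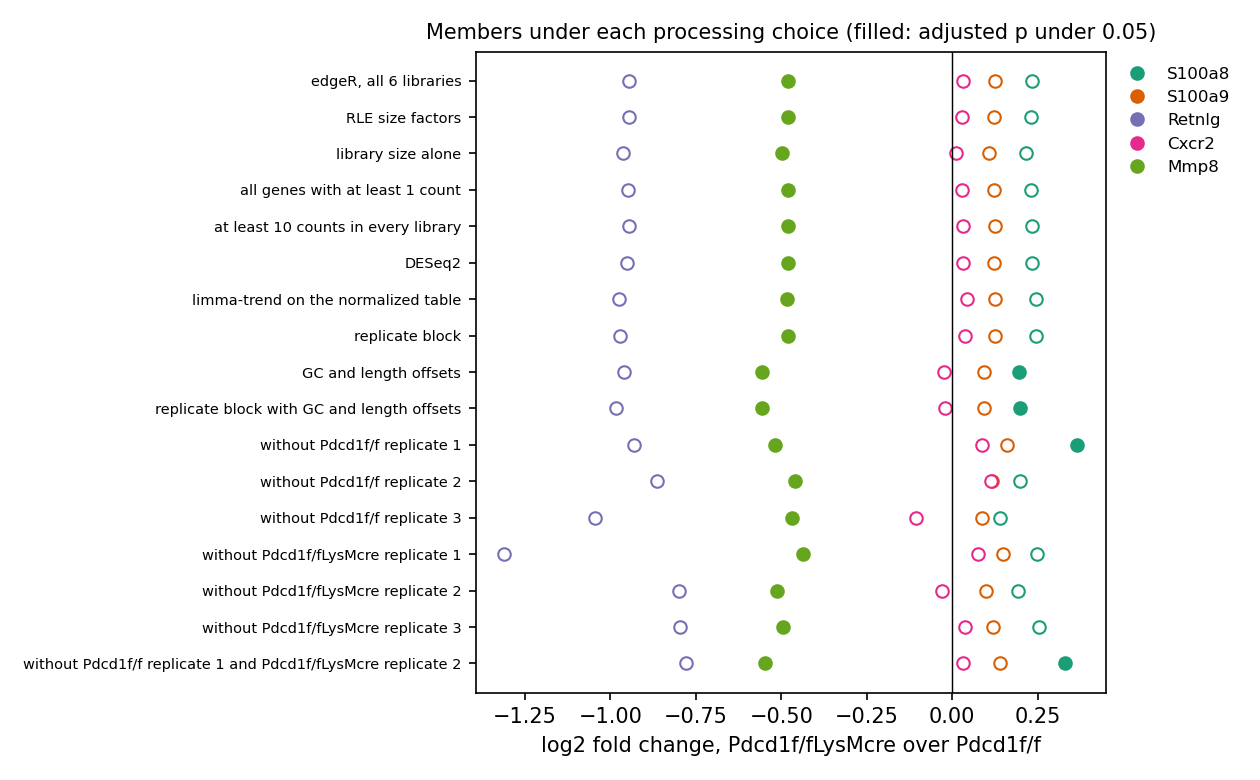
Log2 fold change (horizontal axis) of the 5 tested members under the edgeR fit to all 6 libraries and under each of the 16 alternatives (rows); filled points passed an adjusted p of 0.05. Mmp8 is filled in every row, S100a8 in 4 of the 16 alternatives, and Retnlg, S100a9 and Cxcr2 in none.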

How the data were processed

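RNA-seq of TAMs was analysed in 6 libraries, grouped by the genotype in the labels, 3 libraries each. Raw counts for Ensembl genes were deposited by the authors, who used Cutadapt 2.5, STAR 2.7.3a on GRCm38 and featureCounts (Subread 1.6.2) on stranded polyA libraries. Strand setting and treatment of multi-mapped reads are not given in the sources used here. A deposited table of normalized signal for 16552 genes holds the counts divided by 1 DESeq2 (1.24.0) size factor per library. Camp, Mpo and Elane are not in that table and were given as counts.

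The counts were compared with edgeR 4.0.16 (R 4.3.3), using filterByExpr (minimum count 10, minimum total 15), TMM, robust glmQLFit and a two-sided glmQLFTest. Benjamini-Hochberg adjustment covered all 14469 genes tested, and the threshold was 0.05. SE was the absolute log2 fold change divided by the root of F, and 95% intervals came from the t quantile of the fit. CPM and TPM were computed from the counts, TPM with exon lengths of GENCODE M21, in which 14461 tested IDs had a symbol. Library totals of 41833823 to 51417209 counts leave genes with few counts imprecise. The libraries are labelled replicates, and nothing says that they came from separate mice, so p-values measure the spread between these libraries, which may be technical. The fit was tested on simulated data.

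Alternatives were RLE size factors, library size alone, 2 other count filters, DESeq2 1.42.0, limma-trend 3.58.1 on log2(normalized + 1), a replicate block, GC and length offsets with and without the block, and each library left out. A fit without the 2 libraries set apart by GC content was chosen after seeing the data, as was the sum of the members in TPM. Named genes were the 10 members, listed neutrophil genes, any other gene of the neutrophil, granulopoiesis and CXCR2 ligand lists past the threshold, the genotype and sort checks, and the 5 genes most like S100a8 and S100a9. S100a1, Mmp12 and single genes of the other lists were named after their values were seen. The members and lists were chosen with earlier results of these data known.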

Additional observations from a re-analysis of the deposited data

How the results depend on the processing

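The lower level of Mmp8 and the higher levels of Cxcl3 and Ppbp kept direction and call in all 16 alternatives. The count of members past the threshold was 1 in the edgeR fit to all 6 libraries. It was 2 with GC and length offsets, 2 with these offsets and the replicate block, and 1 to 2 when 1 library was left out, reaching 2 without Pdcd1f/f replicate 1. Of the further neutrophil genes, 2 passed with all libraries, 5 when all genes with at least 1 count were tested, 5 with DESeq2, 4 with the replicate block, 6 with GC and length offsets, 7 with offsets and block, and 0 to 6 when 1 library was left out. The 0 was the edgeR fit without Pdcd1f/f replicate 2, where 5 had an unadjusted p under 0.05. Over all genes, 786 passed with all libraries, 1951 with the filter of at least 1 count, 1517 with DESeq2, 2609 with offsets, 2722 with offsets and block, and 222 to 3181 when 1 library was left out, the lowest without Pdcd1f/fLysMcre replicate 1 and the highest without Pdcd1f/f replicate 1. Without both Pdcd1f/f replicate 1 and Pdcd1f/fLysMcre replicate 2, 2 members, 7 further neutrophil genes and 3757 genes in all passed. The ratio of the summed members, 0.894, was 0.715 without S100a8 and S100a9 and 0.873 to 0.915 when 1 library was left out, and reversed to 1.04 on the TPM scale. The cause of these shifts was not tested.

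Replicate numbers were not used to pair libraries: same-numbered libraries had correlations of −0.049, −0.257 and 0.492 in their deviations from the genotype means, and only the libraries numbered 3 correlated best with their own number. With the replicate block, 1027 genes passed instead of 786, and 1 member. The log2 fold change of Cxcr2 reversed to −0.025 with GC and length offsets and to −0.021 with offsets and block, and ran from −0.106 to 0.113 when 1 library was left out. For Lcn2 that range was −0.131 to 0.177. For Pdcd1 it was −0.577 to 0.0154, and −0.790 without both libraries set apart by GC content. Ptprc reversed to −0.0134 with offsets and to −0.0122 with offsets and block. None of these 4 genes passed the threshold in any fit.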
